A study of Mus musculus with 4 samples.

Results

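Pericytes and vascular mural cells of the juvenile mouse testis, the contractile cells that wrap small vessels, were collected from 4 single-cell RNA libraries by the RNA they held. A cell was taken as mural when its unique molecular identifiers (UMIs, each standing for 1 captured RNA molecule) for Rgs5, Notch3, Higd1b and Abcc9 summed to at least 5 and to at least 0.1% of its UMIs. It also had to hold at least 500 genes, at most 20% mitochondrial UMIs, at most 2 UMIs of the germ cell genes Ddx4 and Dazl, and at most 3 UMIs of the endothelial genes Cdh5, Kdr, Cldn5, Emcn and Esam. In all 110 of 23670 cells that passed the filters on genes and mitochondrial UMIs met this rule, 0.465% of them. The measured values of these genes chose the cells, so their levels are given below as a description.

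Mural cells share a basement membrane with the endothelium and range from contractile smooth muscle on arterioles to pericytes on capillaries. Endothelial PDGF-B acting on the receptor Pdgfrb recruits them, Notch3 keeps them differentiated, and a potassium channel built from the pore Kcnj8 and the regulatory subunit Abcc9 sets their membrane potential. In the testis the vessels run between the seminiferous tubules, whose own contractile wall consists of peritubular myoid cells, and mural cells there are thought to include precursors of Leydig cells.

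All 4 libraries came from testes of mice labelled Acr-Gfp tg mouse (C57BL/6), which carry a transgene named for the acrosin gene and green fluorescent protein, with 1 library per group. In the 2-day and 7-day culture groups, testes taken at 7 days postpartum (dpp) lost their capsule and were cut into pieces. The pieces were kept for 2 or 7 days on agarose in α-MEM with AlbuMAX, a lipid-rich albumin preparation, under the silicone (PDMS) ceiling of a chip. The libraries titled as testes of 9 dpp and 14 dpp, the ages the cultured tissue would have reached, were taken as the in vivo groups. That reading comes from their titles and the series design, since the labels repeat the culture protocol for these libraries too. Neither the number of animals behind a library nor any pooling is given in the labels, and cultured tissue has no blood flow. All tissue was dissociated with collagenase and trypsin.

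With 1 library per group there is no measure of spread between animals or cultures and therefore no test. Intervals are 95% exact intervals for counting error alone: Poisson for levels, Clopper-Pearson for shares, and Katz intervals, which are approximate, for ratios of shares. Those of level ratios are exact for the ratio of the counts given their sum, without the constant. Levels are UMIs of a gene per 1000000 UMIs of the summed mural cells (CPM). Level ratios are log2 ratios of (CPM + 10), which shrinks the ratios of low genes, and a gene is counted as higher or lower at a 2-fold difference. Fewer cells of a type and less RNA of a gene per cell can both lower a share chosen by marker UMIs.

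The libraries held 34491701, 38632065, 60829941 and 58369264 UMIs in 7130, 4909, 5293 and 6338 kept cells (2-day culture, 7-day culture, 9 dpp and 14 dpp, an order kept for all runs of 4 values below). The mural cells summed to 36353, 55284, 212121 and 237391 UMIs, so that 1 UMI was worth 27.5, 18.1, 4.71 and 4.21 CPM, and their median depth was 3411, 6019, 5226 and 3680.5 UMIs. Mitochondrial UMIs had medians of 2.76, 1.93, 3.33 and 3.70%. The cultured mural cells sat close to the threshold: their rule UMIs ran from 5 to 11 (median 6) and from 5 to 23 (median 10), against 6 to 108 (median 23) at 9 dpp and 6 to 63 (median 18) at 14 dpp. Exactly 5 rule UMIs were held by 4, 2, 0 and 0 of them, while 5, 0, 0 and 6 further cells had 4 and otherwise met the rule. Of cells with enough rule UMIs, 2, 9, 14 and 9 were left out by the endothelial limit and 0, 0, 0 and 5 by the germ cell limit. No mural cell was called a doublet by Scrublet, 1 at 14 dpp had more than 3 UMIs of another class, and no barcode was mural in more than 1 library, although library pairs shared 35 to 86 barcodes.

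Markers that the rule did not use were strong in these cells. The 23 further mural markers summed to 8445, 8321, 9023 and 8838 CPM, and 21 of the 23 had a UMI in each library. In Sertoli and germ cells the same list lay between 89.9 and 277 CPM, the level that RNA outside its cell of origin can give. Markers of other classes were low. Germ cell markers summed to 55.0, 36.2, 28.3 and 101 CPM, Leydig cell markers to 0, 0, 4.71 and 16.8, macrophage markers to 0, 0, 4.71 and 16.8, glia markers to 27.5, 0, 0 and 4.21 and endothelial markers outside the rule to 220.1, 217, 94.3 and 257. Fibroblast and stroma markers, which share collagen genes with mural cells, summed to 1073, 1393, 1546 and 1605. Among them the matrix protein gene Dcn had 550.2, 308, 37.7 and 29.5 CPM, higher in both cultures, where 1 cell held 85% of its UMIs after 2 days and 52.9% after 7 days. Sertoli cell markers stood at 715, 633, 499.7 and 2342, and the 14 dpp value came largely from 1 cell, which gave 83.7% of the Clu and 79.5% of the Aard UMIs. The label of mural cells therefore held in all 4 libraries on markers outside the rule.

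The genes that set the mural cells apart from all other cells, apart from the rule genes, included, in order of their smallest ratio over the 4 libraries, Ndufa4l2, Kcnj8, Tm4sf1, Gm13889, Agtr1a, Aspn, Cox4i2, Des, Nostrin, Pdgfrb, Vtn, Gng11, Gucy1a1 and Procr. They include the angiotensin receptor Agtr1a and the nitric oxide sensor subunit Gucy1a1, both of which control vessel tone, and the intermediate filament desmin (Des). Ndufa4l2, a mitochondrial complex subunit induced by low oxygen in many cells, had 1568, 1085, 1589 and 1559 CPM in mural cells and at most 17.0 CPM in the rest of any library. Because the cells were chosen by genes of the same cells, this ranking is a description.

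The mural cells could be told from peritubular myoid cells, the other contractile cells of this tissue. Serpine2, a secreted protease inhibitor, had 3411, 1302, 731 and 493 CPM in mural and 35.4, 16.8, 19.5 and 7.90 CPM in myoid cells. Ndufa4l2, Gm13889, Cox4i2, Kcnj8, the gap junction protein Gja4 and Aspn were also higher in mural cells in every library. In the other direction Mfap4, a microfibril protein, had 0, 18.1, 23.6 and 135 CPM in mural and 1067, 1422, 2655 and 2926 CPM in myoid cells. Slc38a5, Col4a4, Igfbp6, Lsp1, Rbp4, Igf1 and Clmp were likewise lower in mural than in myoid cells. Against endothelial cells the lowest genes were Ctla2a, Cldn5, Cdh5, Icam2, Cd34, Clec14a, Sox17 and Tspan13, of which Cldn5 and Cdh5 belong to the endothelial limit of the rule.

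Fewer cells of the cultured tissue met the 4-gene rule. Mural cells made up 0.126% (0.0577 to 0.239) of the kept cells after 2 days of culture (9 cells) and 0.183% (0.0839 to 0.348) after 7 days (9 cells), against 0.756% (0.540 to 1.03) at 9 dpp (40 cells) and 0.820% (0.613 to 1.07) at 14 dpp (52 cells). The intervals of the cultures and of the in vivo libraries did not overlap. The log2 ratio of shares was -2.58 (-3.62 to -1.54) for the 2-day culture against 9 dpp and -2.16 (-3.18 to -1.14) for the 7-day culture against 14 dpp. With each cell thinned to 3000 UMIs and at least 3 marker UMIs the ratios were -2.02 and -0.64 (the latter with an interval of -1.42 to 0.15). With at least 3 marker UMIs unthinned they were -1.36 and -2.37. The 2-day ratio thus moved with the threshold. The 7-day ratio moved toward 0 only when cells were also thinned, and its interval then held 0. In vivo the share at 14 dpp was similar to that at 9 dpp, with a ratio of 0.12 (-0.47 to 0.71), and between the cultures it was 0.54 (-0.79 to 1.87).

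This difference depended on the marker genes. Kcnj8, Ndufa4l2 and Cox4i2, the lung form of a cytochrome oxidase subunit, were still detected in most cultured mural cells, and for that reason they were chosen, after their values had been seen, as another marker set under the same limits (the Kcnj8 set). With them 46, 31, 33 and 49 cells qualified, which is 0.645% (0.473 to 0.860), 0.631% (0.429 to 0.895), 0.623% (0.430 to 0.874) and 0.773% (0.572 to 1.02) of the kept cells. The ratios were 0.049 (-0.59 to 0.69) and -0.29 (-0.94 to 0.35). Since the 3 genes were chosen for being detected in culture, with Kcnj8 higher there, this choice itself favours a smaller difference in share, and the values are given as a description of how far the share depends on the markers. The intervals cover counting of cells in 1 library per group. Nearly all in vivo cells of the Kcnj8 set also met the 4-gene rule (97.0% at 9 dpp and 91.8% at 14 dpp), but only 19.6% and 29.0% of those in the 2-day and 7-day cultures did. Seen from the rule, 100%, 100%, 80% and 86.5% of the mural cells were in the Kcnj8 set. Of the 37 Kcnj8-set cells of the 2-day culture that failed the rule, 17 held 0 UMIs of its 4 genes and 18 held 1 to 4, and of the 22 in the 7-day culture 19 held 1 to 4.

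The extra cells were not all clean. Stroma markers in the Kcnj8 set summed to 6869, 1630.1, 2305 and 1727 CPM, highest in the 2-day culture. Leydig cell markers reached 1360.5 CPM in the 7-day culture, where 1 cell held all 232 UMIs of Cyp11a1, a steroid-making enzyme. Scrublet called 1 Kcnj8-set cell, in the 2-day culture, a doublet. Endothelial cells of the 2-day culture held 274 CPM of Kcnj8. Limiting the set to cells with at most 5 UMIs of Dcn, Lum and Pdgfra left 32, 25, 32 and 48 cells and ratios of -0.43 (-1.13 to 0.28) and -0.57 (-1.27 to 0.12). The part of stroma RNA in these shares was not tested further. Fewer mural cells and mural cells with less rule RNA cannot be told apart by either rule alone.

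**Figure D1:**
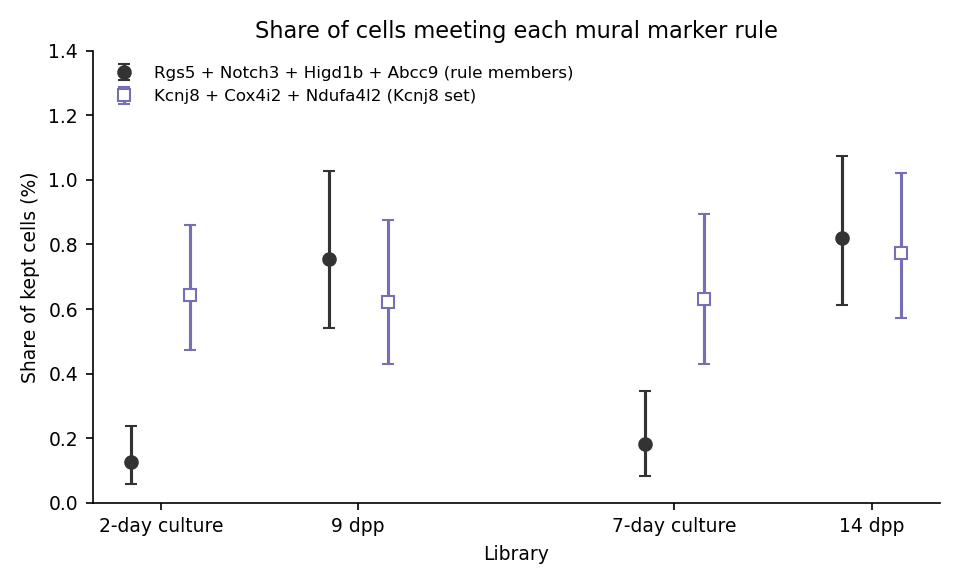
Share of kept cells (%) that met the 4-gene rule (filled circles) and the Kcnj8 set (open squares) in each library, with 95% Clopper-Pearson intervals. The circles of both cultures lie below 0.2% and those of the in vivo libraries above 0.7%, while all 4 squares lie between 0.623% and 0.773%.

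Of the 4 rule genes, Rgs5, Higd1b and Notch3 lay below their in vivo partners in both cultures. Rgs5, a regulator of G protein signalling that is abundant in pericytes (chromosome 1, 169655501 to 169695813, plus strand), had 963, 1266, 2984 and 3656 CPM in the mural cells. Since every mural cell had to hold rule UMIs, the Kcnj8 set shows the gene with less selection on it, and there Rgs5 had 299.5, 382, 3104 and 3532 CPM. Both cultures lay far below both in vivo libraries, and the cultures differed little from each other. Of the Kcnj8-set cells, 37, 22, 1 and 4 failed the rule, and 14, 6, 1 and 1 held more than 5 UMIs of Dcn, Lum and Pdgfra. The part of cells other than mural cells in these Rgs5 levels was not tested.

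The Rgs5 contrast in the Kcnj8 set was also present at equal depth. With each cell thinned to 2000 UMIs, an Rgs5 UMI was found in 13 of 39 cells (33.3%, 19.1 to 50.2) of the 2-day culture and 14 of 31 cells (45.2%, 27.3 to 64.0) of the 7-day culture. At 9 dpp it was 32 of 33 cells (97.0%, 84.2 to 99.9) and at 14 dpp 45 of 46 cells (97.8%, 88.5 to 99.9). Unthinned, the shares were 52.2%, 64.5%, 97.0% and 100%, with 7, 0, 0 and 3 shallower cells left out of the thinned values. Sertoli cells, which should lack the gene, had it in 0 of 732, 0 of 477, 0 of 765 and 1 of 628 thinned cells. The cultured Kcnj8-set cells lay above that, but they include all cultured mural cells, which the rule chose partly by Rgs5. Among Kcnj8-set cells that failed the rule, Rgs5 was found unthinned in 15 of 37 and 11 of 22 cells of the 2-day and 7-day cultures. Unthinned Sertoli cells had it in 3 of 929 and 0 of 488.

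Higd1b, a small mitochondrial protein typical of pericytes (chromosome 11, 102835849 to 102838040, plus strand), had 688, 72.4, 1278 and 821 CPM in mural cells and 221, 45.6, 1418 and 815 CPM in the Kcnj8 set, lowest in the 7-day culture. Notch3, the receptor that keeps mural cells differentiated (chromosome 17, 32120820 to 32166852, minus strand), had 0, 271, 240.4 and 320.1 CPM in mural cells, with no UMI in any of the 9 cells of the 2-day culture. Its level in the Kcnj8 set was 4.91, 120.3, 224 and 304 CPM, so the low level after 2 days was seen in both sets of cells, while the 7-day level lay between it and the in vivo levels in the Kcnj8 set but close to them in the mural cells. Abcc9 (chromosome 6, 142587862 to 142702315, minus strand) had 138, 163, 151 and 75.8 CPM in mural cells and 98.2, 141, 175 and 79.3 CPM in the Kcnj8 set, with wide and overlapping intervals. Coordinates are those of the mouse assembly GRCm38, on which all 4 are annotated as protein coding.

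Kcnj8, the channel pore that works with Abcc9 and is its neighbour on chromosome 6 (142564837 to 142571614, minus strand), was not part of the rule. It had 1485, 995, 566 and 434 CPM in the mural cells, higher in both cultures, with log2 ratios of 1.38 (0.90 to 1.87) and 1.18 (0.70 to 1.68). Ndufa4l2 differed by less than 2-fold in both pairs (1568, 1085, 1589 and 1559 CPM). Cox4i2 had 330.1, 615, 1131 and 779 CPM, lower after 2 days of culture with a ratio of -1.75 (-2.75 to -0.95).

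Across all genes with at least 20 UMIs in the mural cells, 10.6% were at least 2-fold higher and 24.4% lower in the 2-day culture than at 9 dpp, and 9.7% and 17% in the 7-day culture against 14 dpp. With 9 cultured cells in each library, a gene at 0 UMIs is easily counted as lower, and 83.1% of the UMIs behind this minimum came from the in vivo libraries, so it lets in genes high in vivo more readily than genes high in culture. The 1308 better measured genes below are those whose CPM, averaged over the 4 libraries with equal weight, would give at least 5 UMIs in the shallowest library (138 CPM). Among them 8.94% were higher and 12.2% lower in the 2-day pair, and 7.87% and 9.71% in the 7-day pair. The same level taken over pooled UMIs gave 1291 genes, with 5.73% higher and 17.1% lower in the first pair and 4.8% and 13.7% in the second. A gene can pass any such limit through the libraries where it is high, so counts over the genes that passed are descriptions. The summed level of every gene on a list, which has no limit, is given beside them. Within the Kcnj8 set, genes with at least 20 UMIs were higher in 9.39% and lower in 12.9% of cases in the 2-day pair, and 8.46% and 9.89% in the 7-day pair.

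The mural markers outside the rule summed to similar levels in culture and in vivo, as given above, with log2 ratios of -0.10 (-0.27 to 0.08) and -0.09 (-0.24 to 0.06). Among 16 better measured of the 23 markers, 2 were higher and 4 lower in the 2-day pair (median log2 ratio 0.05), and 3 were higher and 1 lower in the 7-day pair (median -0.34). The medians over all better measured genes were 0.010 and 0.099. Within the Kcnj8 set 0 of 20 markers were higher and 8 lower in the 2-day pair, and 2 higher and 5 lower in the 7-day pair, against the shares over all genes given above. Pdgfrb, the receptor for PDGF-B, had 275, 398, 249.9 and 333 CPM. Desmin had 1073, 434, 528 and 573 CPM, and Vtn, which encodes the plasma and matrix protein vitronectin, had 193, 145, 169.7 and 185 CPM. The transcription factor Ebf1 had 605, 561, 844 and 829.9 CPM, Aspn 578, 705, 693 and 691 CPM, Gja4 275, 506, 467 and 649 CPM and Steap4 495, 326, 321 and 345 CPM. None of these 7 differed 2-fold in either pair except desmin in the 2-day pair (1.01).

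Rgs4, a relative of Rgs5 that also dampens G protein signals, was the marker with the lowest ratio after 2 days of culture. It had 82.5, 253, 660 and 678 CPM, with log2 ratios of -2.86 (-5.29 to -1.42) and -1.39 (-2.32 to -0.63), and 113, 257, 679 and 661 CPM in the Kcnj8 set, so both cultures were below both in vivo libraries in both sets of cells. Cygb, the oxygen-binding protein cytoglobin, had 385, 832, 316 and 122 CPM, a ratio of 2.67 (2.07 to 3.49) in the 7-day pair. Art3 had 27.5, 289, 236 and 202 CPM and was low in the 2-day culture, where 1 cell held its only UMI.

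**Figure D2:**
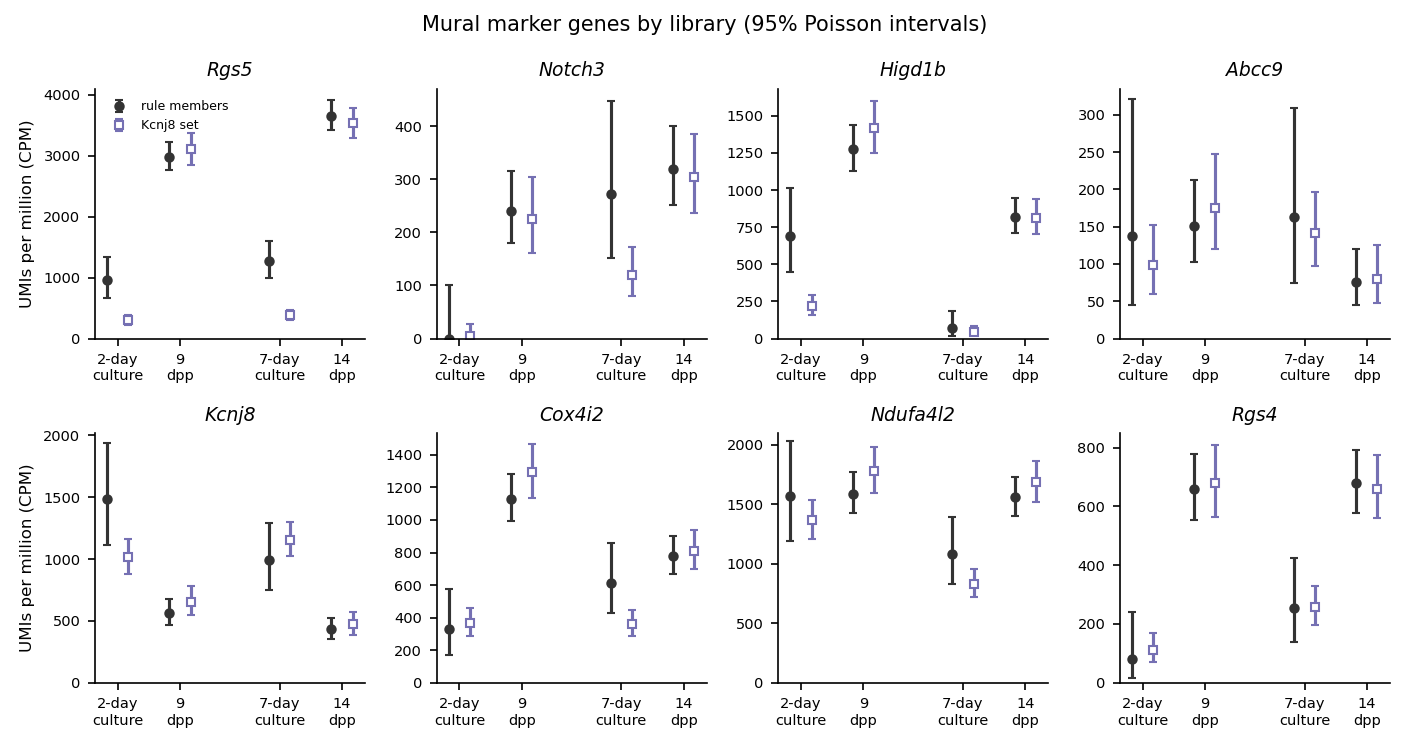
Levels (CPM) of the 4 rule genes (top) and of 4 markers outside the rule (bottom) in the summed rule members (filled circles) and in the Kcnj8 set (open squares), by library, with 95% Poisson intervals. Rgs5 and Rgs4 are lower in both cultures in both sets of cells. Among the rule members Kcnj8 is higher in both cultures and Ndufa4l2 differs little in the 2-day pair, while the squares of Kcnj8, Cox4i2 and Ndufa4l2 show the genes that chose those cells.

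The mural cells of the in vivo libraries were not uniform. In them 8 of 40 cells at 9 dpp and 7 of 52 at 14 dpp were outside the Kcnj8 set. These were rich in contractile RNA, and a few of them in elastin RNA. Their summed level of Acta2, the smooth muscle actin (chromosome 19, 34241090 to 34255590, minus strand), was 17026 and 20018 CPM, against 3483 and 7676 CPM in the mural cells within the Kcnj8 set. The elastin gene Eln (chromosome 5, 134702593 to 134747323, minus strand) stood at 4394 and 4088 CPM against 34.1 and 538. Myl9, the myosin light chain, stood at 9831 and 11548 CPM against 3682 and 4615.

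For Acta2 the same split was seen cell by cell. The median Acta2 level was 144 and 188 UMIs per 10000 in the cells outside the Kcnj8 set, and 19.1 and 18.6 in those within it, with overlap at both ages. Acta2 had no UMI in 1 of the 8 cells outside the set at 9 dpp. Elastin was uneven: over all mural cells, 1 cell gave 57.2% of its UMIs at 9 dpp and 1 cell 42.9% at 14 dpp. Among the cells outside the set the median was 1 elastin UMI at both ages, and the highest cells held 95 and 91. Within the set the highest cells held 1 and 42. The elastin levels outside the set thus rested on few cells. Rgs5 was present in all 15 cells outside the set and in all 77 within it. All 18 cultured mural cells were in the Kcnj8 set, and none had more than 1 UMI of elastin. At the in vivo frequency of cells outside the set, few would be met among 9 cells.

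**Figure D3:**
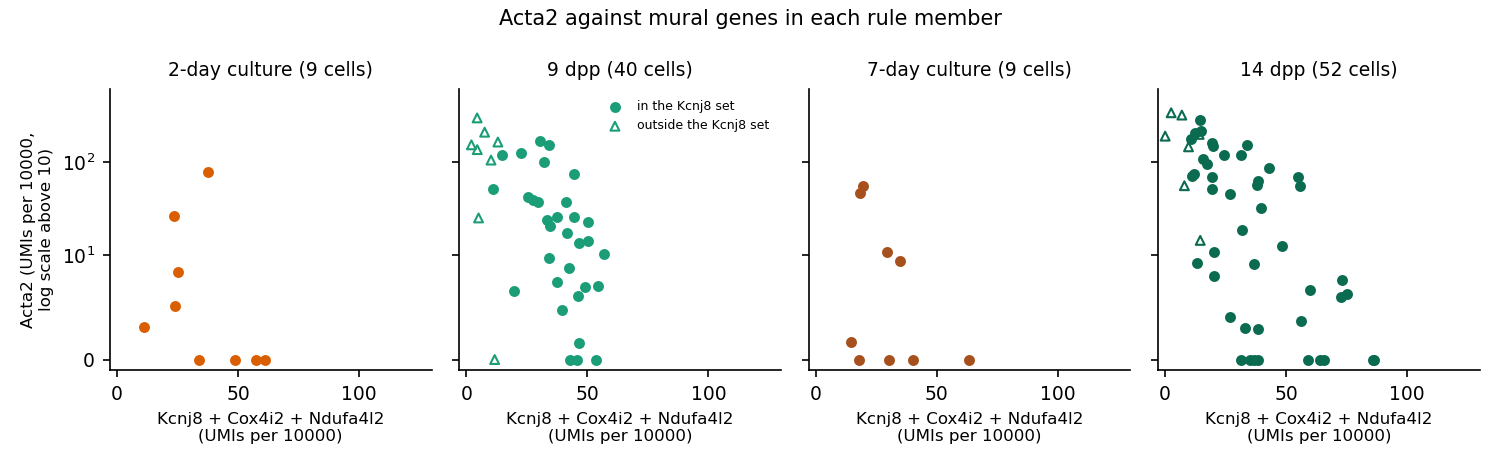
Acta2 (UMIs per 10000, vertical axis, logarithmic above 10) against the sum of Kcnj8, Cox4i2 and Ndufa4l2 (UMIs per 10000, horizontal axis) in each rule member, 1 panel per library. Triangles, cells outside the Kcnj8 set, lie to the left because those genes chose the set. Their Acta2 medians were 144 at 9 dpp and 188 at 14 dpp, although 1 triangle at 9 dpp lies at 0 and 1 at 14 dpp at 14.5, and the culture panels hold no triangle.

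Contractile genes were lower in the cultured mural cells. All 29 genes of the list summed to 8115, 9135, 27414 and 35115 CPM, and the log2 ratios of these sums were -1.75 (-1.93 to -1.59) after 2 days and -1.94 (-2.08 to -1.81) after 7 days. Without Acta2, the gene with the highest mean level of the list, they summed to 6767, 7742, 21606 and 26206 CPM, with ratios of -1.67 (-1.87 to -1.49) and -1.76 (-1.90 to -1.62). Of the 18 better measured ones, 11 were lower and 0 higher in the 2-day pair and 13 lower and 0 higher in the 7-day pair, with medians of -2.19 and -2.02. The background shares of lower genes were 12.2% and 9.71%. Of these genes 2 had no UMI in the 2-day and 3 none in the 7-day culture, so they passed through the in vivo cells.

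The Kcnj8 set gave lower values too, but it is no independent set, since it holds all 18 cultured mural cells and nearly all of its in vivo cells are mural cells of the rule. Within it 15 and 15 of 22 contractile genes were lower, with medians of -1.28 and -1.72, beside 12.9% and 9.89% of all genes. Restricted to mural cells that met both rules, the medians were -1.51 and -1.82, less far from 0 than over all mural cells.

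Acta2 had 1348, 1393, 5808 and 8909 CPM, with log2 ratios of -2.10 (-2.55 to -1.70) and -2.67 (-3.02 to -2.35). It was absent from 4 of 9, 4 of 9, 4 of 40 and 9 of 52 mural cells, and 1 cell held 67.3% of its UMIs in the 2-day culture. Myl9 had 413, 759.7, 4738 and 5308 CPM, with ratios of -3.49 (-4.36 to -2.79) and -2.79 (-3.28 to -2.36), and was found in every in vivo mural cell but in 7 and 6 of the 9 cells of each culture. Tagln, the actin-binding protein transgelin, had 55.0, 362, 1787 and 2721 CPM and was found in 1 and 4 of the 9 cultured cells. In all 3 genes both cultures were below both in vivo libraries.

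Of the other contractile genes, Myh11, the smooth muscle myosin heavy chain, had 0, 18.1, 207 and 615 CPM, and Mustn1, a small muscle protein, had 0, 0, 292 and 628 CPM. Set against a floor of 3 UMIs, Myh11 was at least 2.51-fold lower in the 2-day pair, and Mustn1 was at least 3.54-fold lower in the 2-day pair and at least 11.6-fold lower in the 7-day pair. Within the Kcnj8 set the in vivo mural cells held 125 and 459 CPM of Mustn1, against 1098 and 2149 outside, so its 2-day bound rested largely on the cells outside that set, while Myh11 had 171 and 519.5 CPM within it. Other lower genes were Tpm1 (523, 705, 2588 and 3033 CPM), the myosin light chain kinase Mylk (82.5, 235, 636 and 944 CPM) and Crip1 (358, 579, 2711 and 2473 CPM). Myl6, a myosin light chain also used outside muscle, had 2146, 1718, 2555 and 2936 CPM, and Ppp1r14a, an inhibitor of myosin phosphatase, had 495, 470.3, 514 and 463 CPM, so these differed by less than 2-fold in both pairs.

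Peritubular myoid cells from the same libraries are given for comparison. In them Tagln stood at 968, 810.5, 1013 and 1161 CPM and Myl9 at 1718, 3838, 5699.9 and 6599.7 CPM, with less than 2-fold between culture and in vivo in the 7-day pair for both and in the 2-day pair for Tagln. Acta2 and Myh11, which were used to choose the myoid cells, stood at 5262, 8722, 11868 and 14316 CPM and 168, 383, 483 and 799 CPM. Whether mural and myoid cells differ in this respect was not tested.

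Elastin, the core of elastic fibres in the walls of arteries and arterioles, had 0, 18.1, 783 and 893 CPM in the mural cells and was at least 9.48-fold lower in the 2-day pair against the floor of 3 UMIs. In the Kcnj8 set it had 54.0, 33.2, 82.1 and 603 CPM. There the 2-day culture and 9 dpp had overlapping intervals (27.0 to 96.6 and 46.0 to 135 CPM), so the elastin difference of that pair rested on the in vivo cells outside the Kcnj8 set. At 14 dpp the Kcnj8 set held more elastin RNA than the 7-day culture.

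**Figure D4:**
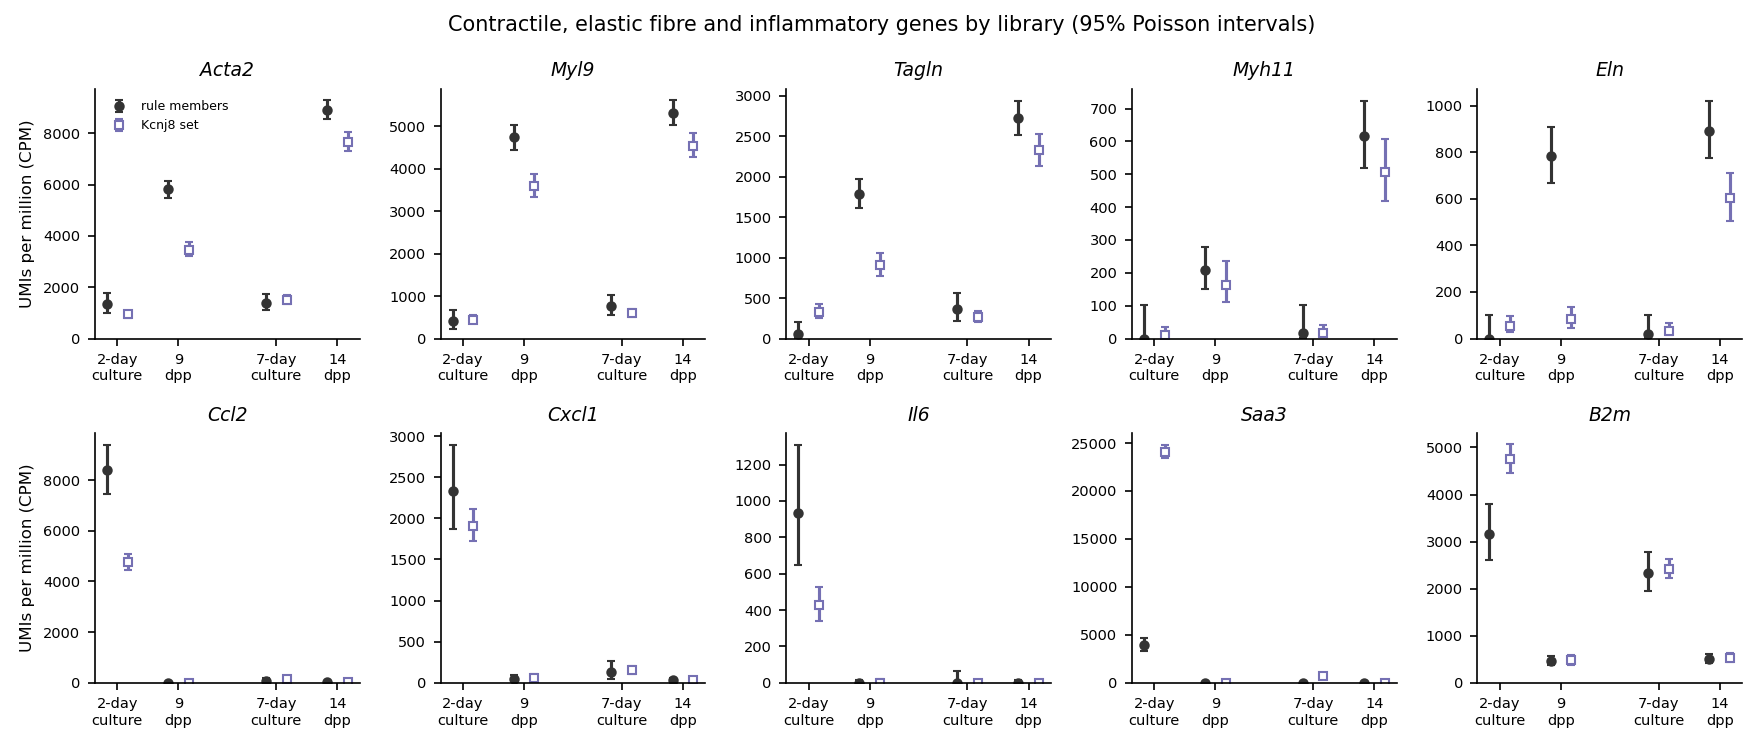
Levels (CPM) of contractile genes and elastin (top) and of inflammatory genes and B2m (bottom) in the rule members (filled circles) and the Kcnj8 set (open squares), by library, with 95% Poisson intervals. Acta2, Myl9, Tagln and Myh11 are lower in both cultures in both sets of cells, the chemokine and Il6 panels are highest in the 2-day culture, and B2m is high in both cultures.

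Many smooth muscle genes carry a CArG box, the 10-base site of serum response factor, near their start. The Myl9 promoter is shown because the gene was among the lowest in culture and its window holds this motif. The sequence is from RefSeq on GRCm38.p6, chr2:156775214-156775463 on the plus strand, the 250 bases before the start site, with the motif in capitals 161 bases before the start:
Myl9: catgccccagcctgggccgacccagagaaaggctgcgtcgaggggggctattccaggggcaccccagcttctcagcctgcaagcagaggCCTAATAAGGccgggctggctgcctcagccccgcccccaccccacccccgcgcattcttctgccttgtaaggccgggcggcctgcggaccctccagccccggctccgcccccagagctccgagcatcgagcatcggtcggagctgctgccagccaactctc
The CArG box was searched on both strands in this window for every gene. It was found in 4 of 30 windows (13.3%) of the contractile genes that could be matched (25 of 29), at Myl6, Myl9, Srf and Vcl, and in 482 of 32851 windows (1.47%) over all genes. Myl6, which has it, differed by less than 2-fold in both pairs, and Myl9, which also has it, by more. A match is a description of these letters and not evidence that a factor is bound, and a window without a match says only that the letters are not in it.

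Inflammatory genes were higher in mural cells after 2 days of culture. All 48 genes of the list summed to 23107, 2062, 1329 and 1601 CPM, so the log2 ratios of the sums were 4.11 (3.92 to 4.32) after 2 days and 0.36 (0.05 to 0.67) after 7 days. Without Ccl2 they summed to 14717, 1989.7, 1329 and 1571 CPM. Of 12 better measured ones, 11 were higher and 1, the complement protease C1s1, lower than at 9 dpp, where the background shares were 8.94% higher and 12.2% lower. As many as 5 of the 12 had no UMI at 9 dpp and passed through the culture where they were high, so this count is a description. After 7 days 4 of the same genes were higher and 1 lower, beside 7.87% and 9.71%. In the 2-day culture the same 1 cell held most UMIs of Ccl2, Cxcl1 and Il6, as given below, so the sum leans on that cell.

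In the larger Kcnj8 set 31 of 36 inflammatory genes with at least 20 UMIs were higher in the 2-day pair (median 3.36) and 16 in the 7-day pair (median 0.75), beside 9.39% and 8.46% of all genes. Between the cultures, 28 of 36 were lower after 7 than after 2 days, where 8.79% of all genes were higher and 6.45% lower. Stroma markers in the mural cells summed to less in the 2-day culture than at 9 dpp, although Dcn was higher there. Those of the Kcnj8 set were highest in the 2-day culture, as given above, and their part in these values was not tested.

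Ccl2, a chemokine that draws monocytes (chromosome 11, 82035571 to 82037453, plus strand), had 8389.95, 72.4, 0 and 29.5 CPM in the mural cells. It was found in 6 of 9 (66.7%, 29.9 to 92.5) mural cells of the 2-day culture with 61.0% of the UMIs in 1 cell, and was at least 593-fold higher than at 9 dpp, where no UMI was seen. In the Kcnj8 set it had 4758, 137, 0 and 30.8 CPM, and there the top cell held 19.2%. Cxcl1, which draws neutrophils, had 2338, 127, 51.9 and 29.5 CPM in the mural cells and was found in 4 of 9 (44.4%, 13.7 to 78.8) of them after 2 days, 1 of which held 67.1%. Both chemokines were also 2-fold or more higher in the 7-day culture than at 14 dpp, at far lower levels. Those 7-day values rested largely on 1 cell, which held 4 UMIs of Ccl2 and 6 of Cxcl1. Ccl2 was found in 1 and Cxcl1 in 2 of the 9 cells there. Sertoli cells of the 2-day culture, taken as the background for UMIs from free RNA, held a Ccl2 UMI in 158 of 929 (17.0%, 14.6 to 19.6) and a Cxcl1 UMI in 368 of 929 (39.6%, 36.5 to 42.8), at a median depth of 5267 UMIs against 3411 in the mural cells. With cells thinned to 2000 UMIs the mural shares were 66.7% and 44.4%, and those of Sertoli cells 7.24% and 25.3%. The share for Cxcl1 in the 9 mural cells is thus not told apart from that background.

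Il6, a cytokine of the acute response, had 935, 0, 0 and 0 CPM, with 88.2% of its UMIs in 1 of 4 cells, and was at least 66.1-fold higher than at 9 dpp. In the Kcnj8 set of the 2-day culture it was found in 11 of 46 cells, at 427 CPM, and in 1 of 929 Sertoli cells. Other cell types of that library held less: 17.9 CPM in myoid, 18.6 in stromal and 5.05 in endothelial cells. Cxcl5 had 880.3, 0, 0 and 0 CPM, and the eosinophil chemokine Ccl11 had 633, 0, 23.6 and 42.1 CPM, against 16.8 CPM in myoid and 47.6 CPM in stromal cells of the 2-day culture. Single cells held most of these UMIs, so the levels say little of the typical mural cell. For Ccl2, Cxcl1 and Il6 the highest mural cell of the 2-day culture was the same cell, with 186, 57 and 30 UMIs.

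Saa3, an acute-phase protein, was lower in mural cells than in their neighbours. It had 3934, 0, 0 and 0 CPM in the mural cells, while stromal cells of the 2-day culture held 29846 and myoid cells 25880.5 CPM. The Kcnj8 set of that library held 24095 CPM, and 5600.1 CPM in its cells with few stroma UMIs, so the value moved with the stroma genes. Nfkbia, the inhibitor that NF-kB induces against itself, had 908, 127, 118 and 168 CPM, and the mitochondrial superoxide dismutase Sod2 had 798, 181, 123 and 147 CPM. Both were high in the 2-day culture alone. Mt1, a metal-binding protein, had 578, 181, 231 and 303 CPM.

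NF-kB is the factor best known for switching on such chemokine genes. The Cxcl1 and Il6 promoters are shown because both genes were high in the 2-day culture and hold the kappa B motif (GGG, any 2 bases, then TTTCC), in capitals, in the 250 bases before their start. They are from RefSeq on GRCm38.p6, plus strand, chr5:90890995-90891244 for Cxcl1, with matches 89 and 71 bases before the start, and chr5:30012864-30013113 for Il6, with a match 44 bases before it:
Cxcl1: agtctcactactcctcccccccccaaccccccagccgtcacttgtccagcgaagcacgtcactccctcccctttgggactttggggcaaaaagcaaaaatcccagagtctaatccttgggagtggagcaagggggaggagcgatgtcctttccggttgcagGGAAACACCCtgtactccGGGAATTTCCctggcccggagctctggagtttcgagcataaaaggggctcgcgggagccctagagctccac
Il6: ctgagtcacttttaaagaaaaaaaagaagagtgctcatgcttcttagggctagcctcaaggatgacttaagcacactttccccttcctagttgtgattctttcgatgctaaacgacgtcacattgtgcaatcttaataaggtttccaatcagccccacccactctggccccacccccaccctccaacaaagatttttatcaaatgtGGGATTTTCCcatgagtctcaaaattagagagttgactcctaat
Searched on both strands, the motif was found in 8 of 39 windows (20.5%) of the inflammation genes that could be matched (33 of 48), at Csf1, Cxcl1, Cxcl2, Il6, Nfkb2, Nfkbia and Tnfaip3. Over all genes it was found in 464 of 32851 windows (1.41%). No contractile gene window held it, and no inflammation gene window held a CArG box.

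The interferon response list, which includes genes of antigen presentation, had a higher sum in both cultures, while after 7 days its single genes differed in direction. Its 38 genes summed to 14112, 7742, 2616 and 3189 CPM, with log2 ratios of 2.43 (2.26 to 2.61) and 1.28 (1.11 to 1.45). Without the most abundant, Ifitm3, they summed to 9078, 5083, 1320 and 1819.8 CPM, with ratios of 2.77 (2.55 to 3.02) and 1.48 (1.26 to 1.70). Of the 10 with at least 20 UMIs, 6 were higher and 0 lower in the 2-day pair, where the background shares were 10.6% and 24.4%. After 7 days 3 of the list, B2m, H2-D1 and H2-K1, were higher and 2, Ifi27 and Ifi35, lower, beside 9.7% and 17%. Within the Kcnj8 set 21 and 10 of 26 were higher and 1 and 0 lower, beside 9.39% and 8.46% higher over all genes. Class I genes with their light chain B2m, and Ifitm3, made up most of the 7-day sum, as their levels below show.

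B2m, the light chain of class I molecules, had 3163, 2333, 462 and 514 CPM, with ratios of 2.75 (2.37 to 3.18) and 2.16 (1.81 to 2.55), and was found in all 18 cultured mural cells. H2-D1, a class I heavy chain, had 2421, 1085, 51.9 and 122 CPM. It was found in all 18 cultured cells but in 8 of 40 and 21 of 52 in vivo. H2-K1, another heavy chain, had 1375, 362, 14.1 and 88.5 CPM; class I genes are near copies of each other, so their split is uncertain. Ifitm3, a membrane protein that blocks virus entry, had 5034, 2659, 1296 and 1369 CPM, and Psmb8, a subunit of the immunoproteasome, had 275, 36.2, 18.9 and 29.5 CPM, both within 2-fold in the 7-day pair.

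Genes through which mural cells sense vasoactive signals summed to 1953, 1682, 1952 and 2304 CPM over the 25 of the list, within 2-fold in both pairs, while single genes differed. Agtr1a had 440.1, 344, 339 and 388 CPM and Gucy1a1 358, 488, 419.6 and 636 CPM. Its partner subunit Gucy1b1 had 82.5, 199, 358 and 345 CPM and was lower in the 2-day pair, with a ratio of -1.99 (-4.43 to -0.52). The endothelin receptor Ednrb had 495, 127, 108 and 4.21 CPM, higher in both cultures, although in the 2-day culture 1 cell held 55.6% of its UMIs and in the 7-day culture 71.4%. Of 12 tone genes with at least 20 UMIs, 2 were higher and 4 lower after 2 days of culture, and 1 was higher and 2 lower after 7 days, beside background shares of 10.6% and 24.4%, and 9.7% and 17%. The Kcnj8 set had 0 higher and 4 lower of 12 after 2 days, and 2 and 5 after 7 days, beside 9.39% and 12.9%, and 8.46% and 9.89%.

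Notch signalling genes summed to 633, 923, 1339 and 1601 CPM over the 21 of the list, with log2 ratios of -1.07 (-1.76 to -0.47) and -0.79 (-1.25 to -0.37), and single genes went both ways. The target Hes1 had 303, 452, 499.7 and 829.9 CPM, within 2-fold in both pairs. Heyl, a target typical of mural cells, had 0, 235, 165 and 109.5 CPM, with no UMI in the 2-day culture, as for Notch3. The ligand Jag1 had 0, 0, 56.6 and 80.0 CPM, with no UMI in either culture. Nrarp, a feedback inhibitor of the pathway, had 165, 18.1, 302 and 173 CPM, lowest in the 7-day culture. In the Kcnj8 set Heyl had 58.9, 389.9, 153 and 115 CPM, Jag1 9.82, 16.6, 43.8 and 79.3 CPM and Nrarp 113, 53.9, 279 and 181 CPM. Of the 7 genes of the list with at least 20 UMIs, 2 were lower and 1 higher in the 2-day pair, and 3 lower and 1 higher in the 7-day pair, beside background shares of 24.4% and 10.6%, and 17% and 9.7%. The 2-day count of lower genes and the counts of higher genes lay near the background, while 3 of 7 lower in the 7-day pair lay above it. In the Kcnj8 set 4 of 11 were lower and 1 higher after 2 days, and 3 were lower and 1 higher after 7 days. All genes of that set had 12.9% and 9.39%, and 9.89% and 8.46%. With so few genes these counts are descriptions.

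Among secreted signals, Igfbp7, a binding protein for insulin-like growth factors that marks vessels, had 6464, 6548, 4738 and 5822 CPM, within 2-fold in both pairs. Angpt2, which loosens the contact of mural cells and endothelium, had 27.5, 18.1, 156 and 135 CPM and was found in 1 cell of each culture. Cxcl12, a chemokine that holds stem and immune cells in place, had 0, 0, 75.4 and 198 CPM, with no UMI in either culture. Pleiotrophin (Ptn) had 0, 90.4, 302 and 101 CPM, and the related midkine (Mdk) 633, 561, 434 and 244 CPM. All 30 vascular growth factors and receptors summed to 7895, 7977, 6727 and 7806 CPM, with log2 ratios of 0.23 (0.04 to 0.41) and 0.03 (-0.12 to 0.18), and without Igfbp7 to 1430.4, 1429, 1989 and 1984 CPM, with ratios of -0.47 (-0.92 to -0.06) and -0.47 (-0.84 to -0.13), all within 2-fold. Of 15 with at least 20 UMIs, 8 were lower and 2 higher in the 2-day pair (median -1.22), and 6 lower and 1 higher in the 7-day pair (median -0.82). Over all such genes 24.4% were lower and 10.6% higher, and 17% and 9.7%, so the higher counts were at the background. With 4 and 2 of these at 0 in the cultures and only 3 better measured, the counts are descriptions. Of the Kcnj8 set's 19, 5 were lower and 5 higher after 2 days (all genes 12.9% and 9.39%), and 8 and 1 after 7 days (9.89% and 8.46%).

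Basement membrane genes, which mural cells and endothelium make together, gave sums that depended on 1 gene, Sparc. All 19 summed to 14854, 15122, 11371 and 12246 CPM, with log2 ratios of 0.39 (0.25 to 0.52) and 0.30 (0.19 to 0.42). Without Sparc they summed to 2256, 3075, 3847 and 4199.8 CPM, with log2 ratios of -0.77 (-1.12 to -0.44) and -0.45 (-0.69 to -0.21), so both the full sum and the rest were within 2-fold, in opposite directions. Sparc, a collagen-binding matrix protein, had 12599, 12047, 7524 and 8046 CPM, with ratios of 0.74 (0.59 to 0.89) and 0.58 (0.45 to 0.71). Col4a1, a chain of type IV collagen, had 385, 742, 919 and 1036 CPM, and its partner Col4a2 275, 271, 490.3 and 779 CPM. The laminin receptor chain Itga7 had 27.5, 18.1, 174 and 194 CPM and was found in 1 cell of each culture, against 23 of 40 and 28 of 52 in vivo. Of 15 genes with at least 20 UMIs, 7 were lower and 0 higher in the 2-day pair, and 6 lower and 1, the laminin chain Lamb1 (named after its value was seen), higher in the 7-day pair. The background shares were 24.4% lower and 10.6% higher, and 17% and 9.7%. Within the Kcnj8 set 5 and 5 of 15 were lower and 0 higher in either pair, beside 12.9% and 9.89% of all genes lower.

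Fibrillar matrix and wound response genes depended on the set of cells. The 33 genes of the list summed to 6547, 8212, 9094 and 8105 CPM in the mural cells. Of 11 better measured ones, 5 were lower and 1 higher in the 2-day pair, and 3 were lower and 3 higher in the 7-day pair, beside 12.2% and 8.94%, and 9.71% and 7.87% over all better measured genes. The 2-day pair went the other way in the Kcnj8 set, with 10 of 27 higher and 0 lower (median 0.67), and the 7-day pair had 6 higher and 3 lower. All genes of that set were higher in 9.39% and 8.46% and lower in 12.9% and 9.89% of cases. Stroma markers, which share genes with this list, were highest in that set after 2 days, as given above, and their part in it was not tested. Col1a1, a chain of type I collagen, had 0, 36.2, 160.3 and 227 CPM. Mgp, the matrix Gla protein that keeps vessel walls from calcifying, had 413, 1863, 490.3 and 737 CPM, highest in the 7-day culture, with a ratio of 1.33 (0.97 to 1.70). Timp1, an inhibitor of matrix proteases, had 495, 217, 28.3 and 21.1 CPM, high in both cultures, with ratios of 3.72 (2.73 to 5.75) and 2.87 (1.76 to 5.22), and 1 cell held 58.3% of its UMIs after 7 days. The proteoglycan Bgn had 550.2, 1483, 1159.7 and 901 CPM.

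Cell cycle genes were low after 2 days of culture. The 26 proliferation genes summed to 1073, 3346, 7378 and 3576 CPM, with log2 ratios of -2.77 (-3.28 to -2.32) after 2 days and -0.10 (-0.33 to 0.14) after 7 days, and without H2afz to 495, 2207, 5497 and 2418 CPM. Among the 25 with at least 20 UMIs, 24 were lower in the 2-day pair (all genes 24.4%), but 17 of the 25 had no UMI in that culture and passed through the in vivo cells. H2afz, a histone variant raised in dividing cells, had 578, 1139.6, 1881 and 1158 CPM, Stmn1 had 27.5, 289, 721 and 177 CPM, and the mitotic regulator Cdc20 had 0, 0, 212 and 135 CPM. After 7 days 7 of the 25 were higher and 9 lower (all genes 9.7% and 17%), and in that culture 1 cell held all UMIs of Top2a and Mki67. In the larger Kcnj8 set 21 and 15 of 25 were lower in the 2 pairs, beside 12.9% and 9.89%. With 9 cells and few cycling ones in vivo (Mki67 in 7 of 40 and 8 of 52), the number of cycling cultured cells is poorly known.

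Between 9 and 14 dpp 5.26% of genes with at least 20 UMIs were higher and 4.39% lower at 14 dpp. These shares come from deeper sums than those of the culture pairs and were not compared with them at equal depth. Among the proliferation genes, 14 of 25 were lower at 14 dpp and 0 higher (median -1.01), and all 26 summed to 7378 CPM at 9 dpp and 3576 CPM at 14 dpp. Stmn1, a microtubule regulator, had a ratio of -1.97 (-2.56 to -1.53). Myh11 was higher at 14 dpp, with a ratio of 1.52 (1.07 to 2.09), as was Mustn1 at 1.08 (0.67 to 1.55), while Acta2 (0.62) and Myl9 (0.16) were within 2-fold. Ednrb was lower at -3.06 (-10.05 to -2.06), with 8 of 40 cells positive at 9 dpp and 1 of 52 at 14 dpp.

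Immediate early genes, which dissociation itself can induce, and hypoxia genes were examined as measures of handling and oxygen. The 27 immediate early and heat shock genes summed to 7757, 8592, 7189 and 8526 CPM. Of 22 with at least 20 UMIs, 6 were higher and 2 lower in the 2-day pair, beside 10.6% and 24.4% of all genes. After 7 days 0 were higher and 5 lower than at 14 dpp (all genes 9.7% and 17%), and 5 were higher at 14 than at 9 dpp (5.26%). Fos had 440.1, 669, 636 and 1597 CPM, with 93.8% of its UMIs in 1 cell after 2 days of culture. The 22 hypoxia and glycolysis genes summed to 5419, 3364, 4578 and 3930.2 CPM, within 2-fold in both pairs. Of 13 with at least 20 UMIs, 1 was higher and 3 lower after 2 days of culture, and 0 and 2 after 7 days. All genes had 10.6% and 24.4%, and 9.7% and 17%. In the Kcnj8 set 12 of 19 were higher after 2 days of culture and 0 after 7 days, against 9.39% and 8.46%, so the count depended on the set of cells. Stroma markers of that set were highest after 2 days, as given above, and their part in this count was not tested.

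Among all genes with at least 20 UMIs, those highest in both culture pairs by their smaller ratio were Plac8, Gm10260, Gsta3, H2-D1, Cdkn1a, Timp1, Cxcl16, Mest, Cebpb, B2m, Hilpda and Gpsm3. Plac8 had 1210.3, 1085, 23.6 and 12.6 CPM, and Gsta3, a glutathione transferase, had 1375, 615, 70.7 and 59.0 CPM. Cdkn1a, the cell cycle inhibitor p21, had 138, 253, 9.43 and 8.42 CPM, with 80% of its UMIs in 1 cell after 2 days. Hilpda, a lipid droplet protein, had 413, 109, 28.3 and 16.8 CPM, with 53.3% in 1 cell after 2 days. Mest had 1018, 199, 184 and 33.7 CPM, and 1 of the 2 positive cells of the 7-day culture held 90.9% of its 11 UMIs, so its 7-day value rests on that cell. Gm10260 is a predicted gene. Whether its reads can be told from those of similar ribosomal protein genes was not examined, so its level is uncertain. It was not a difference of mural cells alone: Gm10260 had 220.1, 235, 0 and 0 CPM in the mural cells and 339.9, 213, 5.59 and 3.87 CPM in all other kept cells. Plac8 and H2-D1 were also higher in culture in those other cells, at 668, 101, 23.9 and 27.7 CPM and 1188, 418, 37.0 and 121 CPM.

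Those lowest in both pairs, all of which passed that minimum through the in vivo cells, were Eln, Mustn1, Myh11, Prss23, Cav1, Cdc20, Gm8797, Ccnb2, Rergl, Olfr558, Cryab and Cenpa. The predicted gene Gm8797 had 0, 0, 165 and 131 CPM in the mural cells and 16.2, 14.1, 166 and 162 CPM in all other kept cells, so this too was a difference between the culture and in vivo libraries as a whole. Cav1, which builds the membrane pits called caveolae, had 0, 36.2, 651 and 788 CPM in the mural cells. Cryab, a small heat shock protein of muscle, had 27.5, 0, 476 and 682 CPM, and Rergl, a small GTPase, had 0, 0, 127 and 257 CPM. Olfr558, an odorant receptor gene, had 0, 0, 123 and 198 CPM, and Prss23, a secreted protease, 0, 0, 179 and 312 CPM. Eln, Mustn1, Myh11, Cdc20, Ccnb2 and Cenpa belong to the contractile, matrix and proliferation lists described above.

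By the same ranking over time, the genes higher at 14 than at 9 dpp and in the 7-day than in the 2-day culture included Adamts5, Fxyd6, Stbd1, Plpp3, Phldb2, Akap12 and Calcoco1. Adamts5, a protease that cleaves proteoglycans, had 0, 36.2, 37.7 and 257 CPM. Those lower in both included Mest, Slc9a3r1, Igfbp2, Ednrb, Pstk, Golt1b and Cenpm.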

How the data were processed

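The deposited files are UMI count matrices, made by the authors with Cell Ranger 3.0.2 on mm10, per the submitters' processing notes, from Chromium 3′ v2 libraries sequenced on an Illumina instrument. The gene annotation release and the rule for calling cells are not given in the sources used here. The labels' protocol text also speaks of female gonads and ES-derived cells, which no sample label names. Each matrix lists 31053 gene identifiers with 31017 symbols. Counts were used as deposited.

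Cells were chosen by the rule in the text, their UMIs summed per library and scaled to CPM, and compared as log2 ratios of (CPM + 10) in Python 3.11.15 with numpy 2.4.6, scipy 1.17.1, pandas 2.3.3 and scanpy 1.11.5 (Scrublet). Genes with at least 20 UMIs over the mural cells were used, 4350 in all. The pairs were 2-day culture against 9 dpp and 7-day culture against 14 dpp, which match in total age, and the later against the earlier time in each setting. No test was made, since each group held 1 library. The ratio code was checked on simulated counts. The constant of 10 CPM was set for deeper sums than the cultured mural cells gave, where it is less than 1 UMI.

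The mural cells, the gene lists and the marker sets were chosen with earlier results of these data known. Named genes are the rule genes, genes of the lists with the most UMIs first, the 12 higher and 12 lower genes of both culture pairs and the 8 each way over time (ranked by the smaller ratio, without mitochondrial genes, rule genes and markers of other classes), the 15 genes highest against all other cells, and the 8 highest and lowest against myoid and against endothelial cells. A few genes that these rankings pick are not reported here. Comparison cells needed at least 5 UMIs and 0.1% of UMIs of their own genes: Acta2, Myh11, Cnn1 and Actg2 for myoid, Pdgfra, Dcn, Lum and Tcf21 for stromal, Amh, Sox9, Cldn11 and Rhox8 for Sertoli, and Ddx4 and Dazl for germ cells, and the endothelial genes of the rule for endothelial cells, with limits on each other's genes. Alternatives were other constants, thresholds and filters, TMM scaling (edgeR 4.0.16), DESeq2 1.42.0 size factors, equal weight per cell, subtraction of free RNA, removal of doublet calls, and the Kcnj8 set. Promoters and gene positions are from RefSeq (GRCm38.p6) and the GRCm38 annotation.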

Additional observations from a re-analysis of the deposited data

Results flagged for a closer look

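Among the rule, list and named genes with at least 20 UMIs, 2 had opposite directions in the culture pairs of the mural cells with counting intervals away from 0 in both. Other genes, such as several of the proliferation list, also differed in sign between the pairs, with an interval that reached 0 in at least 1 pair. The difference between the pairs was not tested. The proteoglycan gene Bgn had a log2 ratio of -1.06 in the 2-day culture against 9 dpp and 0.71 in the 7-day culture against 14 dpp. The Notch target Heyl had -4.13 and 1.04. Heyl had no UMI in the 9 mural cells of the 2-day culture, so the size of its first value is set by the constant of 10 CPM, and against a floor of 3 UMIs it was at least 2.00-fold lower than at 9 dpp, while its 7-day level rested on 13 UMIs in 5 cells.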

How the results depend on the processing

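Of 156 recomputed values, 110 stayed close to the reported ones, 45 lay farther from them than counting error or than 1.5 times for counts, and 1 at least 2-fold value changed direction: the mural share of the 2-day pair, 0.049 with the Kcnj8 set, which also gave -0.29 in the 7-day pair. Signs also changed for values near 0: inflammation in the 7-day pair from 0.14 to -0.14 with at least 8 marker UMIs, and mural markers in the 2-day pair from -0.08 to 0.05 over the better measured genes by either limit. With few stroma UMIs the Kcnj8 set gave share ratios of -0.43 and -0.57. The 2-day share ratio was -1.36 with at least 3 and -3.68 with at least 8 marker UMIs, and the 7-day ratio -0.64 after thinning to 3000 UMIs. Median ratios of contractile genes in the 2-day and 7-day pairs were -2.92 and -2.10 with a constant of 1, -1.33 and -1.27 with 50, -1.28 and -1.72 in the Kcnj8 set, and -1.51 and -1.82 in cells of both sets, -2.10 without a UMI minimum in the 2-day pair, and -1.64 with equal weights and -1.82 with at least 8 marker UMIs in the 7-day pair. Inflammation in the 2-day pair had 2.96 with 1, 2.13 with 50, 2.16 without a minimum, 2.39 with equal weights, 3.16 with at least 8 marker UMIs, 4.75 over the better measured genes and 3.36 in the Kcnj8 set, and in the 7-day pair 0.75 in the Kcnj8 set. Mural markers outside the rule had -0.45 with at least 8 marker UMIs, -0.72 in the Kcnj8 set and -0.29 in both sets in the 2-day pair, and -0.61 in the Kcnj8 set in the 7-day pair. Counts of higher and lower genes in the 2-day pair, 462 and 1062, became 214 and 553 with a constant of 50, 1468 and 2866 without a minimum, 117 and 160 over the better measured genes and 74 and 221 with the same limit on pooled UMIs. In the 7-day pair, 422 and 738 became 168 and 333, 1540 and 2346, 103 and 127, and 62 and 177. The Kcnj8 set, both limits on the level of a gene and the stroma limit were chosen after seeing the data. The causes of these shifts were not tested, apart from the number of genes counted. Depth limits the cultures most: 9 cells each, where 3 UMIs amount to 82.5 and 54.3 CPM. No paired analysis was possible because each group held 1 library.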
